A study of Mus musculus with 8 samples.

Results

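The TRAJ genes are the joining segments of the mouse T cell receptor α (TRA) chain. A rearranged TRA chain takes 1 variable gene (TRAV) and 1 TRAJ gene, and the DNA between the chosen genes is deleted. The TRAJ genes are numbered from the constant gene outward, so a high number lies next to the TRAV genes (V-proximal) and a low number lies next to the constant gene (distal). The TCRδ genes (TRDD, TRDJ and TRDC) lie between the TRAV and the TRAJ genes, and a TRAV to TRAJ join removes them. Joining can be repeated on the same chromosome, each time with a TRAV gene further upstream and a TRAJ gene further downstream, until a receptor passes thymic selection.

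CD8+ T cells of 7 mice were profiled by single-cell TCR sequencing, in 14 tables. Each mouse gave a thymus table, joined by its own spleen (mouse-155A, mouse-155C) or by its tumor (mouse-164C, mouse-164B, mouse-160C, mouse-160B, mouse-160A). The study used Pdcd1fl/fl mice and Pdcd1 cKO mice, in which a CD8 E8I-driven Cre deletes Pdcd1, at baseline or bearing B16-OVA or B16-F10 melanoma, but the labels give neither genotype, tumor model, age nor tissue for a table. The animal and the tissue were taken from the name each table was deposited under, no genotype or tumor comparison was made, and every value is given per table or per animal. None of these alleles alters the TRA locus.

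Members were all TRAJ genes called on barcodes without a multiplet mark. Of 253531 barcodes, 129948 carried a TRA chain, and 107882 of these were unmarked. TRAV11 joined to TRAJ18, the chain of invariant NKT-like cells, was set apart with 3811 cells, which left 104071 cells, 2358 to 20470 per table. Cells with the same TRAV, TRAJ and CDR3 amino acid sequence in a table were counted once as a distinct chain, 67698 in all and 660 (mouse-160A tumor) to 12403 (mouse-164C tumor) per table. A median of 1 or 2 TRA transcripts stood behind a cell, and no barcode occurred in more than 1 table. Intervals of shares given below are exact Clopper–Pearson 95% intervals and cover counting error only.

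The annotation of mouse genome build GRCm39 places 60 TRAJ genes on chromosome 14 between 54392462 and 54456299, a stretch of 63.838 kb, of which 51 are labelled as genes and 9 as pseudogenes. Chains were called with 45 of them, and 42 of these were present in all 14 tables. TRAJ25, TRAJ46 and TRAJ59 were each called in fewer than 10 cells. TRAJ3, TRAJ19, TRAJ20, TRAJ29, TRAJ41 and TRAJ44, all annotated as genes, were called in 0 of 67698 distinct chains, which allows a share of up to 0.00443%. The 9 pseudogenes, TRAJ1, TRAJ8, TRAJ14, TRAJ36, TRAJ51, TRAJ54, TRAJ55, TRAJ60 and TRAJ61, were also called in no chain. It is not stated whether the authors' pipeline reference contained these genes.

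The germline segments that mark the ends of the usage range are shown from the GRCm39 sequence, plus strand, from the recombination signal to the last base of the joining gene. Capitals mark the nonamer and then the heptamer of the signal, which the recombinase reads, and the lower case bases that follow the heptamer are the coding segment. TRAJ22 and TRAJ30 were the most used genes, TRAJ35 and TRAJ7 the least used of those in every table, TRAJ18 is the gene of the invariant chain, and TRAJ41 was never called.
TRAJ22, chr14:54434677-54434764: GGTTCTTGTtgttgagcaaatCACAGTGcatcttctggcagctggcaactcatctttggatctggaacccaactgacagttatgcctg
TRAJ30, chr14:54427295-54427381: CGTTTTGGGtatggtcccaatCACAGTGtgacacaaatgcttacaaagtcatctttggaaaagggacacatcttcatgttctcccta
TRAJ35, chr14:54421203-54421295: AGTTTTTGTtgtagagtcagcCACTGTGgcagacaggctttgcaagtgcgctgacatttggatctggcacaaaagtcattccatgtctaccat
TRAJ7, chr14:54448899-54448985: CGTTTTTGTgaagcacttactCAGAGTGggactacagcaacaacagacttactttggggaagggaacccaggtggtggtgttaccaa
TRAJ18, chr14:54438206-54438299: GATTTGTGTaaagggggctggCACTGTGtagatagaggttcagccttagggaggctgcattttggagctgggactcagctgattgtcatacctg
TRAJ41, chr14:54413700-54413782: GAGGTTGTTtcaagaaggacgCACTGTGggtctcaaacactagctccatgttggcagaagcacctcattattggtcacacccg

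All 42 genes called in every table had a heptamer that ends in GTG and a coding segment with the joining motif (Phe or Trp, then Gly-any-Gly) whose first residue closes the CDR3 of a functional chain. That residue is Phe in 40 of them and Trp in the other 2, TRAJ33 and TRAJ38. The 6 annotated genes that were never called had 0 segments with this motif. TRAJ41 carries the exact consensus heptamer CACTGTG but a nonamer that matches the consensus GGTTTTTGT at 4 of 9 positions. The 42 genes matched the consensus at a median of 13 of 16 positions and the 6 uncalled genes at 9.5. Among the 42, the number of matches and the share of chains were weakly related (Spearman's rho 0.22 across genes, which share 1 locus). The 14 genes with the exact heptamer had a median share of 2.83% and the other 28 of 1.88%, with ranges of 0.637% to 4.41% and 0.214% to 6.11%. These shares leave out the TRDJ-ended chains described next.

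A set of chains called with TRAJ22 or TRAJ34 did not carry the end of those genes. The CDR3 of a TRAJ22 chain closes with the residues QLIF, which the gene encodes, whereas the CDR3 of 1322 of the TRAJ22 chains (24.8%) closed with KLVF, the end encoded by TRDJ1, a joining gene of the TCRδ chain. TRAJ16 and TRAJ50 encode the same 4 residues, so the end alone does not name the gene, and the nucleotides are given below. KLVF also closed 115 TRAJ34 chains (5.59%) and 7 chains of other TRAJ genes, and QMFF, the end encoded by TRDJ2, closed 16 chains of other TRAJ genes. These 1460 distinct TRDJ-ended chains, 2.16% of all, came from 1515 cells. In the chains without a TRDJ end, 98.2% closed with the residues of their own called gene. TRDJ1 is shown with TRAJ34 in the same format as above.
TRDJ1, chr14:54360567-54360645: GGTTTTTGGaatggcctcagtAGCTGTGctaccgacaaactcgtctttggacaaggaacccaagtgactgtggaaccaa
TRAJ34, chr14:54422128-54422213: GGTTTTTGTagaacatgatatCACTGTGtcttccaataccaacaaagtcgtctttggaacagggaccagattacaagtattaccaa

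The nucleotide sequences held in the deposited annotation showed the same. Of 1292 cells with a TRDJ-ended chain and nucleotides, 93.9% went on past the CDR3 as TRDJ1 over 12 bases and 64.6% held the start of TRDC over 20 bases, against 0.155% for TRAC, the TRA constant gene. In 5801 cells with a TRAJ22 chain of its own end, 0.362% went on as TRDJ1, 0.328% held TRDC and 83.0% held TRAC. The identity of the read to the called joining gene had a median of 83.9% in the former and 100% in the latter. In 99.8% of the TRDJ-ended cells no constant gene had been called. The CDR3s printed here have the bases shared with the germline joining gene in capitals, and their counts cover cells with nucleotides. They are the invariant TRAV11 to TRAJ18 chain (1261 cells), a TRAJ22 chain of its own end and 3 TRDJ-ended chains called TRAJ22. The TRAJ22 chain (TRAV3-1, 1118 cells) had the most cells among those found in all 7 animals.
TRAV11 to TRAJ18: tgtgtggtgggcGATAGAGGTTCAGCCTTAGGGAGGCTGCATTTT
TRAV3-1 to TRAJ22: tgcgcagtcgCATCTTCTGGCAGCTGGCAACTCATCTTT
TRAV21-DV12 to TRDJ1: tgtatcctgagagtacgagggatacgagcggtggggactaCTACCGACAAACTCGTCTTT
TRAV15-1-DV6-1 to TRDJ1: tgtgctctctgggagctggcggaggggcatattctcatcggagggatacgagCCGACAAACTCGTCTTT
TRAV15D-1-DV6D-1 to TRDJ1: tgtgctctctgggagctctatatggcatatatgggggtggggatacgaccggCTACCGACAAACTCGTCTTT

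TRDJ-ended chains came mainly from 3 variable genes that bear a DV name because the TCRδ chain can also use them. TRAV21-DV12 gave 460 of them (37.3% of its chains), TRAV15-1-DV6-1 448 (72.3%) and TRAV15D-1-DV6D-1 384 (71.0%), together 88.5% of the set. These 3 genes were singled out after their values were seen. Their CDR3 was long, with a median of 18 residues (range 7 to 28) against 14 for TRAJ22 chains without that end. Between 2.99% and 4.41% of the distinct chains of a thymus table had the TRDJ end, against 0.605% to 3.21% in spleen and tumor tables. The share was lower in the paired tissue in 6 of 7 animals, for example 3.70% (95% interval 3.23 to 4.22) in the thymus and 0.696% (0.535 to 0.890) in the tumor of mouse-160B. In mouse-160C it was 3.04% (2.58 to 3.57) and 3.21% (2.50 to 4.06), which overlap within counting error. In the other 5 animals the thymus and paired-tissue shares were 4.25% and 0.675% (mouse-155A), 4.41% and 1.56% (mouse-155C), 3.44% and 1.97% (mouse-160A), 2.99% and 1.31% (mouse-164B), and 3.62% and 0.605% (mouse-164C). Counted by cells, the share was 2.41% to 3.45% in thymus and 0.386% to 1.24% in spleen and tumor tables, and these ranges did not overlap. The cell counts of tumors also hold expanded chains of other kinds. In mouse-160C tumor, 67 of 2085 distinct chains but 69 of 6849 cells (1.01%) had the TRDJ end. The ranges by distinct chains overlap. A TRB chain accompanied 50.6% to 76.5% of TRDJ-ended cells of a thymus and 7.69% to 21.2% of those of a spleen or tumor. Other cells had one in 46.5% to 69.5% of cases over all tables. Whether TRDJ-ended chains come from γδ T cells was not tested.

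TRAJ22 was the most used gene in all 14 tables by distinct chains, also once TRDJ-ended chains were left out. Its share of distinct chains had a median of 8.48% over the tables (6.18% to 10.2%) and of 6.11% (5.56% to 6.79%) without the TRDJ-ended chains. TRAJ30 followed at a median of 4.96% (4.27% to 5.76%), TRAJ23 at 4.39%, TRAJ26 at 4.31%, TRAJ31 at 4.10%, TRAJ12 at 3.64%, TRAJ49 at 3.52% and TRAJ15 at 3.49%. The ranges of TRAJ30, TRAJ23, TRAJ26 and TRAJ31 overlap from table to table, so their order is not fixed by these values. At the other end, TRAJ7 had a median of 0.206%, TRAJ35 0.621%, TRAJ58 0.892%, TRAJ38 0.967%, TRAJ53 1.05% and TRAJ28 1.07%. TRAJ7 reached 1.21% (0.525 to 2.37) in mouse-160A tumor, the table with the fewest chains. TRAJ33 had a median of 3.01% and TRAJ18, with its TRAV11 chains set apart, 1.53%. Gene number and share had a Spearman's rho of -0.09 across the 42 genes, without TRDJ-ended chains. A rank correlation shows only a steady rise or fall. The most used genes, TRAJ22, TRAJ30, TRAJ23, TRAJ26 and TRAJ31, all have numbers from the middle of the locus.

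**Figure D1:**
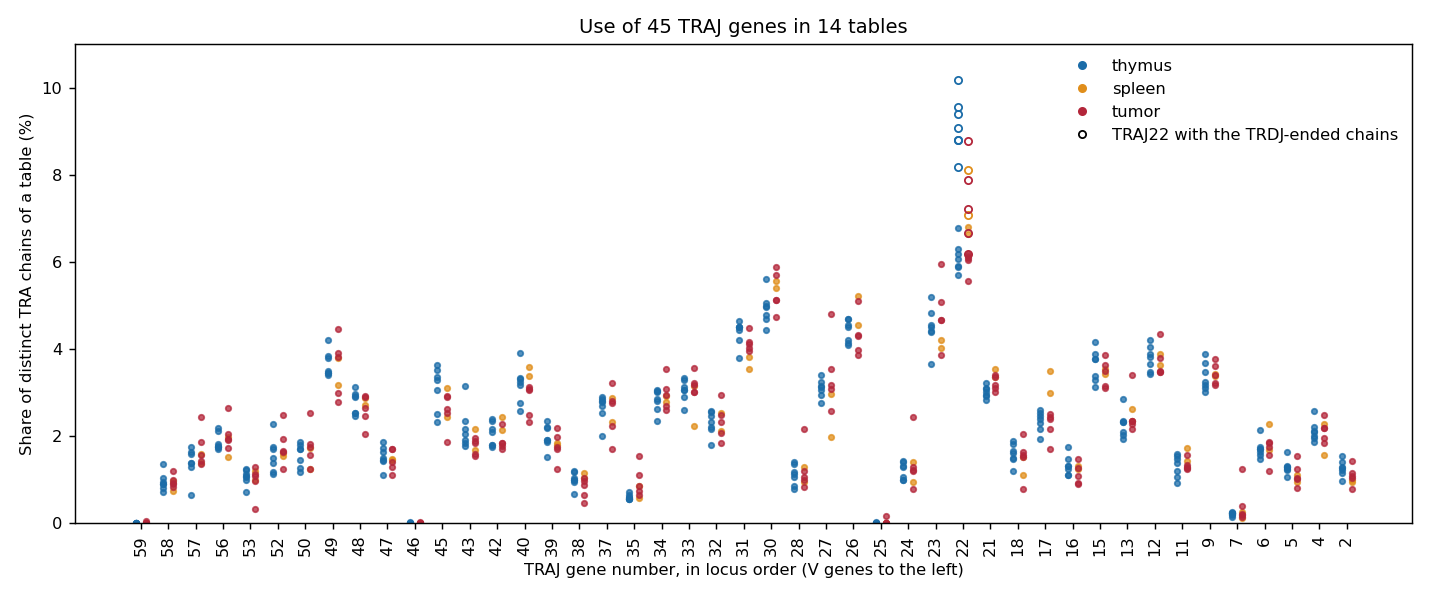
Share of distinct chains (percent) for each TRAJ gene, ordered by gene number from V-proximal to distal, 1 point per table in blue (thymus), orange (spleen) or red (tumor). Filled points leave out TRDJ-ended chains, open circles give TRAJ22 with them. TRAJ22 is highest at a median of 6.11% without and 8.48% with these chains.

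TRAJ gene shares differed less between tables when chains were counted once than by cells, most of all among spleen and tumor tables. The Jensen–Shannon distance (0 for identical shares, 1 for no overlap) was 0.047 to 0.104 between the thymus tables of different animals (21 pairs), 0.044 to 0.160 between the spleen and tumor tables (21 pairs) and 0.050 to 0.143 between the 2 tables of 1 animal (7 pairs). Counted by cells, the same distances were 0.058 to 0.118, 0.088 to 0.4998 and 0.081 to 0.434. Mouse-160A tumor held 23.0% of its cells in TRAJ52, against a median of 1.504% over tables, and 75.0% of these cells carried a single TRAV14-3 chain. Mouse-164B tumor held 16.3% in TRAJ33, with 68.4% from 1 TRAV3-3 chain, and mouse-160A tumor 9.46%, with 78.5% from 1 TRAV9-4 chain. Mouse-160C tumor held 9.30% in TRAJ13 and 9.65% in TRAJ21, with leading chains of 90.9% and 86.5%. Mouse-164C tumor held 6.38% in TRAJ56, with 76.9% from 1 TRAV12-1 chain. By distinct chains the same genes in the same tables were at 2.42%, 2.97%, 3.48%, 2.35%, 3.07% and 1.89%, against medians over tables of 1.60%, 3.01%, 3.01%, 2.27%, 3.01% and 1.82%. TRAJ28 is different again, with a median of 5.22% of cells and 1.07% of distinct chains, and 3714 of its 4478 cells had a CDR3 that did not start with C and end with F or W.

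The mean TRAJ number of distinct chains, a summary of place in the locus, lay between 28.24 (mouse-155C thymus) and 29.74 (mouse-160B tumor), with an SD over the chains of a table of 13.7 to 14.4. Between 20.9% and 24.6% of chains used V-proximal genes (TRAJ61 to TRAJ41), 50.6% to 53.7% middle genes (TRAJ40 to TRAJ21) and 24.3% to 27.2% distal genes (TRAJ20 to TRAJ1). These zones follow the gene number and do not hold equal numbers of called genes. The TRDJ-ended chains called TRAJ22 or TRAJ34 count as middle. Without TRDJ-ended chains the highest middle share, that of mouse-155C thymus, went from 53.7% to 51.8%. Spleen or tumor minus thymus, the mean differed by 0.22 for mouse-155A, 0.33 for mouse-155C, -1.12 for mouse-160A, 0.89 for mouse-160B, -0.46 for mouse-160C, -0.02 for mouse-164B and 0.61 for mouse-164C. The paired tissue was higher in 4 of 7 animals. The 95% normal interval from the standard error over chains excluded 0 in 2, mouse-160B (0.42 to 1.36) and mouse-164C (0.19 to 1.04). That interval covers the sampling of chains only and narrows with their number. These 2 tumors held 9050 and 12403 chains, and mouse-160A tumor, with the largest difference in size, held 660. Without the TRDJ-ended chains the paired tissue was higher in 3 of 7 animals and lower in 4, with mouse-155A at -0.02. The lower limit of mouse-164C was then 0.0022. By cells, the mean ran from 25.8 in mouse-160C tumor to 31.2 in mouse-160A tumor, the tables with the expanded chains above.

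**Figure D2:**
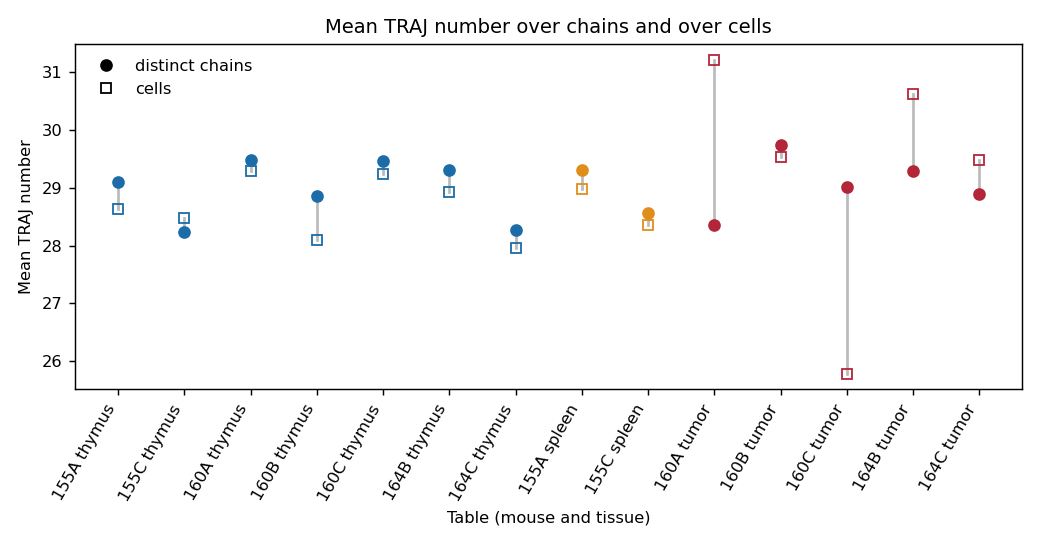
Mean TRAJ number of each table, by distinct chains and by cells, as filled circles (distinct chains) and open squares (cells) joined by a grey line, colored blue for thymus, orange for spleen and red for tumor. The vertical axis starts above 0. By chains all tables sit between 28.24 and 29.74, and by cells the tumor tables spread from 25.8 to 31.2.

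Direction was then followed across animals for the 41 TRAJ genes whose median share was 0.5% or more. TRAJ22 was lower in the paired tissue of all 7 animals, 1 gene of 41, while 8.26% of all 121 TRAV, TRAJ, TRBV and TRBJ genes tested were lower in all 7. TRAJ57 and TRAJ21 were higher in all 7, 2 genes of 41, while 7.44% of all genes were. TRAJ21 had a median of 2.89% of thymus chains and 3.33% of paired-tissue chains, and TRAJ57 1.32% and 1.55%. Counted by cells, TRAJ21 and TRAJ57 were each higher in the paired tissue of 3 animals and lower in 4. With the TRDJ-ended chains left out, 0 TRAJ genes were lower in all 7, against 6.72% of 119 genes, and TRAJ21 alone was higher in all 7, against 5.04%. As shares of 41 genes, all these counts lie below those of all segments. The TRAJ21 difference was small, 0.09 to 0.53 percentage points over the 7 animals.

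The TRAJ22 difference between tissues was present with the TRDJ-ended chains and not without them. Over all chains, TRAJ22 made 9.55% of the distinct chains of the thymus and 7.08% of the spleen of mouse-155A, and 10.2% and 8.12% for mouse-155C. Thymus and tumor were at 8.79% and 7.88% for mouse-160A, 9.40% and 6.18% for mouse-160B, 8.80% and 8.78% for mouse-160C, 8.18% and 7.20% for mouse-164B, and 9.08% and 6.67% for mouse-164C. The thymus was the higher of the pair in every mouse, by least for mouse-160C. The intervals of thymus and paired tissue were apart in 3 of 7 animals. Among chains of TRAV genes under 500 kb upstream, which include TRAV21-DV12, TRAJ22 was lower in the paired tissue of all 7, from 10.4% and 2.96% for mouse-155A to 8.22% and 6.88% for mouse-160C. Among chains of TRAV genes 500 to 750 kb upstream, which include TRAV15-1-DV6-1, it was also lower in all 7. Among chains of TRAV genes over 750 kb upstream, which include TRAV15D-1-DV6D-1, it was lower in 4 of 7. Counted by cells, TRAJ22 was lower in 5 of 7 animals and higher in the tumor of mouse-160A (8.78% and 12.8%) and mouse-164C (9.15% and 15.2%). In mouse-164C tumor a single TRAV3-1 to TRAJ22 chain made up 1909 cells, 9.33% of the cells of that tumor. Without the TRDJ-ended chains, the same pairs, in the same order, were 6.07% and 6.63%, 6.78% and 6.79%, 5.89% and 6.18%, 6.18% and 5.56%, 6.28% and 6.10%, 5.69% and 6.05%, and 5.90% and 6.13%. TRAJ22 was then lower in the paired tissue of 2 of 7 animals, and the intervals were apart in 0 of 7. Among chains of TRAV genes under 500 kb upstream it was then lower in 4 of 7. The count was 3 of 7 at 500 to 750 kb and 1 of 7 over 750 kb.

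**Figure D3:**
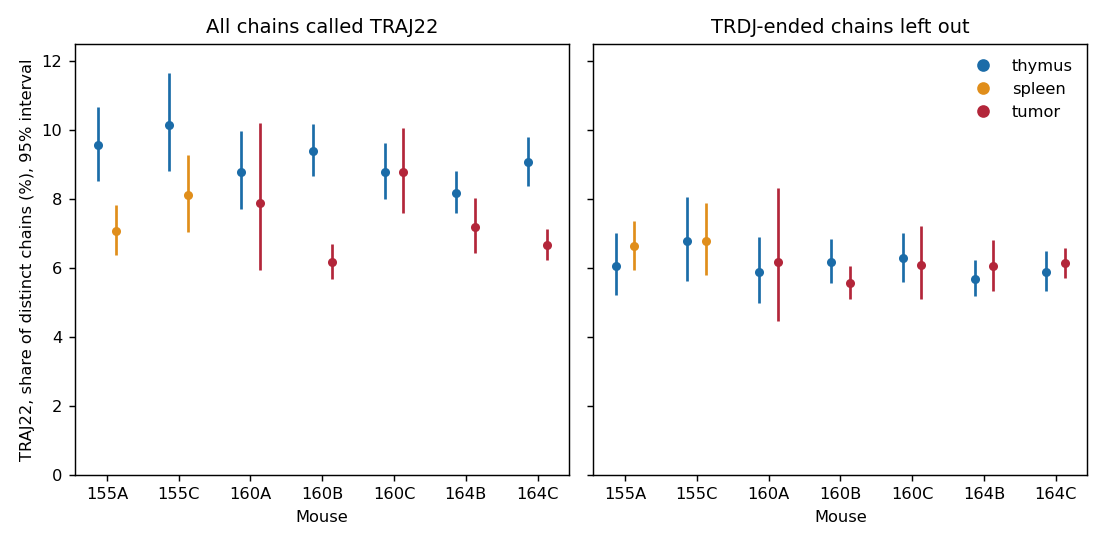
Share of distinct chains called TRAJ22 (percent, bars are exact 95% intervals) in the thymus (blue) and the spleen (orange) or tumor (red) of each mouse, for all chains on the left and without TRDJ-ended chains on the right. The thymus is higher in 7 of 7 mice with all chains and in 2 of 7 without them.

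The TRAJ number followed the place of the TRAV gene. Each TRAV gene with at least 50 distinct chains (63 genes) was given the mean TRAJ number of its chains and its distance upstream of the TRAJ genes. Spearman's rho was 0.84 and Pearson's r 0.80 across the 63 genes, with nearer TRAV genes joined to higher TRAJ numbers; the genes share 1 locus and are not independent. Leaving out the D and N copies, near-identical TRAV genes of a duplicated region further upstream whose reads can be split between copies, gave a rho of 0.97 over 38 genes. The relation held within 750 kb (rho 0.95, 32 genes) and not beyond (-0.17, 31 genes), where mean numbers lay between 21.1 and 27.97. All 25 D and N copies lie beyond 750 kb. Among these copies rho was -0.26. The genes beyond 750 kb that are not copies lie 1488 to 1588 kb upstream. From far to near, their means were 22.7 (TRAV2), 21.5 (TRAV3-1), 22.3 (TRAV5-1), 23.9 (TRAV6-1), 24.2 (TRAV7-1) and 24.5 (TRAV6-2). What distance and the splitting of reads between copies each add beyond 750 kb was not tested. The thymus and paired-tissue means of the 63 genes had a Pearson's r of 0.98.

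TRAV19, 310 kb upstream, had the highest mean number, 48.4 ± 0.31 (SEM over 975 chains), and 83.6% of its chains used V-proximal TRAJ genes, led by TRAJ56 and TRAJ57. TRAV14-3 followed at 44.6 ± 0.33, TRAV17 at 44.3 ± 0.46 and TRAV16 at 44.1 ± 0.29. The lowest means were those of TRAV7N-4 (21.1), TRAV4D-3 (21.1), TRAV12D-2 (21.2) and TRAV9D-3 (21.2), lying 1064 to 1255 kb upstream, and all copies of the duplicated region. These 4 lie within their errors of each other. TRAV11, without its TRAJ18 chains, had a mean of 30.3 ± 0.99 over 194 chains. Leaving out TRDJ-ended chains moved the TRAV genes that gave most of them. TRAV21-DV12 went from 38.9 to 48.3, beside TRAV19, TRAV15-1-DV6-1 from 26.1 to 34.6, and TRAV15D-1-DV6D-1 from 24.9 to 29.8.

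**Figure D4:**
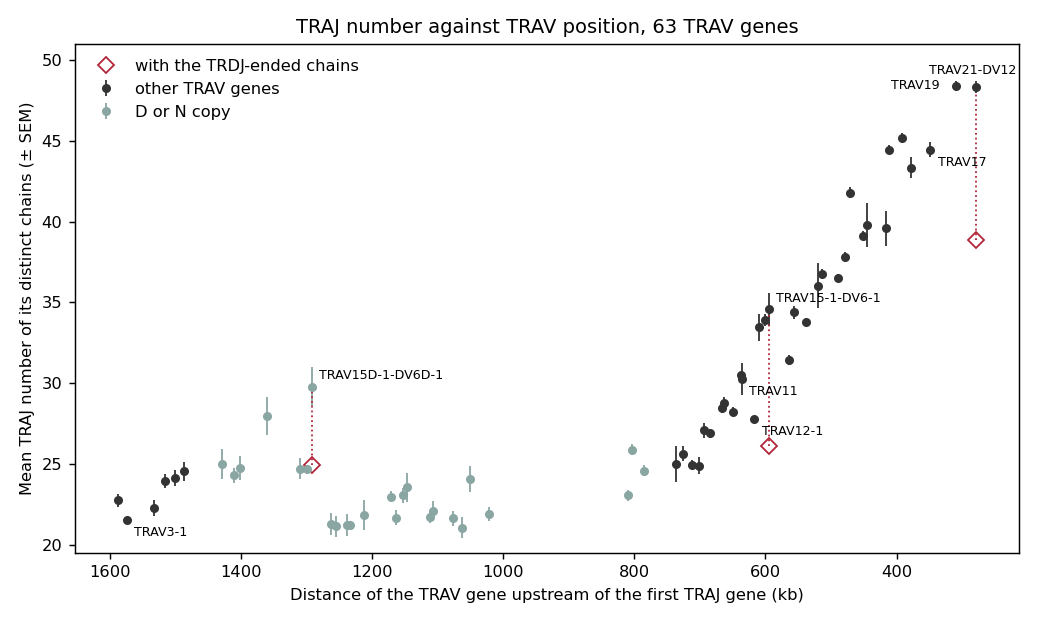
Mean TRAJ number of the chains of each TRAV gene (bars, SEM over chains) against its distance upstream of the first TRAJ gene in kb, without TRDJ-ended chains. Grey points are D or N copies, and open diamonds give 3 genes with the TRDJ-ended chains kept. Means fall from 48.4 for TRAV19 to 21.1 for TRAV7N-4.

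The gradient was present in every table. TRAV genes were put in 3 bins, under 500 kb (17 genes), 500 to 750 kb (23 genes) and over 750 kb (42 genes). The mean TRAJ number was 38.3 to 41.9 for the near bin, 28.3 to 30.3 for the middle bin and 21.9 to 23.7 for the far bin over the 14 tables. The near bin exceeded the far bin by 15.8 to 19.0 gene numbers in all 14 tables, and by 16.3 to 19.3 without TRDJ-ended chains. Between 47.9% and 59.6% of near-bin chains used V-proximal TRAJ genes, against 7.31% to 10.99% of far-bin chains.

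Single TRAJ genes followed the same order. The share of a gene among near-bin chains was divided by its share among far-bin chains. The V-proximal TRAJ57 had a ratio of 10.96 (4.28% against 0.390%), TRAJ53 10.8 and TRAJ56 10.1. Around TRAJ31 the ratio passed 1, with 1.25 for TRAJ33, 0.811 for TRAJ31 and 0.517 for TRAJ30. The distal TRAJ9 had 0.067 (0.370% against 5.51%) and TRAJ12 0.082. TRAJ22 stood off this line at 0.641, between TRAJ23 at 0.284 and TRAJ21 at 0.195. Without the TRDJ-ended chains its ratio was 0.272, between TRAJ23 at 0.291 and TRAJ21 at 0.200.

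**Figure D5:**
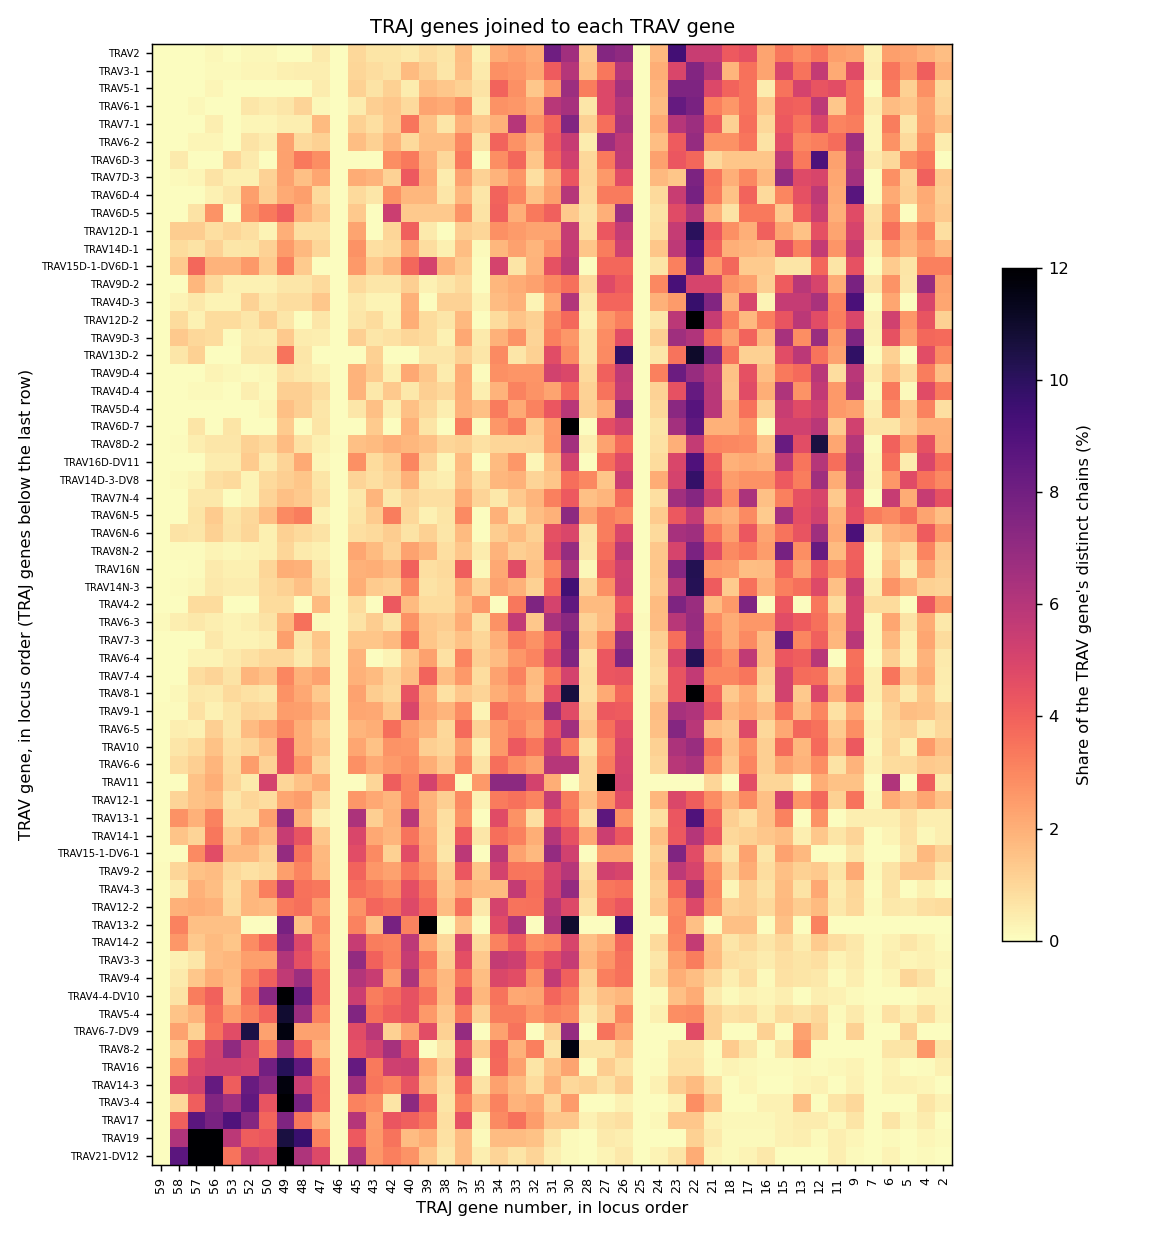
Share of the chains of each TRAV gene (rows, ordered along the locus) that use each TRAJ gene (columns, ordered by number), in percent, without TRDJ-ended chains and without TRAV11 to TRAJ18. The darkest color stands for 12% and above. The dense area runs from near TRAV genes with V-proximal TRAJ genes, such as TRAV19 with TRAJ56 (16.1%), toward far TRAV genes with middle and distal TRAJ genes.

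The set-apart TRAV11 to TRAJ18 cells made 73.5% of all 5187 TRAJ18 cells. They made up 5.78% to 10.9% of TRA-bearing cells of a thymus, against 0.200% to 1.13% of those of a spleen or tumor. They came as 31 distinct chains, the most frequent in 3579 of 3811 cells. Outside this pair, TRAJ18 joined 62 TRAV genes in 1045 distinct chains. The TRAV1 to TRAJ33 pair of MAIT-like cells was seen in 1 cell, among 62 TRAV1 cells and 4398 TRAJ33 cells.

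The bases a joining gene keeps also varied by gene. Of the distinct nucleotide chains, 98.1% could be placed on their germline TRAJ gene (53489 chains), which had lost a median of 3 bases at the join and no base in 24.0%. The mean loss per gene ran from 1.32 bases for TRAJ11 to 5.36 for TRAJ39. TRAJ22 lost 1.61 on average and was untrimmed in 44.5% of its chains. Table means lay within 2.74 to 2.99. The CDR3 length followed the gene, from a median of 12 residues for TRAJ31 to 15 for TRAJ53, and the number of germline CDR3 bases and the mean CDR3 length had a Spearman's rho of 0.92 across 42 genes.

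Barcodes with 2 TRA chains let the joins of both chromosomes be set side by side. In 16613 such barcodes, TRAV11 to TRAJ18 chains included and every cell of an expanded clone counted, the TRAJ numbers of the primary and the secondary chain had a Spearman's rho of 0.40, and 55.2% lay within 10 numbers of each other. Over tables, rho ran from 0.27 (mouse-164B tumor) to 0.52 (mouse-155C spleen). The share within 10 numbers ran from 32.4% (mouse-164B tumor) to 66.0% (mouse-160C tumor). The share for unrelated chains was not computed. The secondary chain had a mean number of 35.8 beside a V-proximal primary chain, 30.1 beside a middle one and 21.8 beside a distal one. Without TRAV11 to TRAJ18 chains and noncanonical CDR3s, the 10164 distinct pairs had a rho of 0.36. By tissue it was 0.50 in thymus, 0.50 in spleen and 0.26 in tumor tables (3780, 629 and 5755 pairs). With at least 2 transcripts in both chains it was 0.50 in thymus and 0.23 in tumor tables (1125 and 1435 pairs). Of the distinct pairs, only those whose chains occurred in no other pair were then counted. For these, rho was 0.52 in thymus, 0.53 in spleen and 0.38 in tumor tables (2758, 441 and 2842 pairs). The part of unmarked doublets in these pairs was not tested.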

How the data were processed

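Productive TRA and TRB chains had been assembled, annotated and counted by the authors with the Parse Biosciences TCR pipeline, of unstated version and V(D)J reference. The processing notes name GRCm39. The deposited barcode tables hold transcript and read counts per chain, with a multiplet mark, and the deposited annotation holds nucleotide sequences. For 3 tables these covered under 95% of the cells (lowest 29.2%), in the files used here. The deposited clonotype tables were not used here.

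The 8 labelled samples are sublibraries of the same cells and have no group, so no test was made and no p-value computed; cells and chains are not replicates. The members and the gene lists were chosen with earlier results of these data known. Named genes were the 8 highest and 6 lowest TRAJ genes by median share of distinct chains, those seen in no table, those that moved the same way in all 7 animals, TRAJ18, TRAJ33, genes over 3 times their median in 1 table (median at least 1%), the 4 highest and 4 lowest TRAV genes by mean TRAJ number, and TRAV11. Positions and germline sequences came from the GENCODE vM39 annotation of GRCm39. Python 3.11.15, pandas 2.3.3, numpy 2.4.6 and scipy 1.17.1 were used, and the counting was tested on simulated data. A count of 0 was read as a limit of 3 counts. Alternatives changed the unit, the filters on barcodes and chains, the sublibraries, the zone limits and the TRAV order; leaving out TRDJ-ended chains, leaving out noncanonical CDR3s, merging CDR3s 1 residue apart and counting distinct pairs were chosen after seeing the data.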

Additional observations from a re-analysis of the deposited data

How the results depend on the processing

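The 8 labelled samples could not be paired, because these sublibraries of the same cells have no group and share no replicate number between groups. The tables of each animal were set side by side, and that pairing was not tested. The TRAJ22 median share was 7.60% over barcodes with a TRB chain and 6.11% without TRDJ-ended chains, and TRAJ22 was then lower in 2 animals. Without chains of more than 1 animal the mean TRAJ number was 29.65 and the V-proximal share 24.0%. That share was 16.4% and 31.1% with zone limits 5 numbers higher and lower. The count of genes lower in all 7 animals was 3 by cells and 0 with multiplets kept, without TRDJ-ended chains or without noncanonical CDR3s. The count of genes higher was 1 by cells, without chains of more than 1 animal, without TRDJ-ended chains or without noncanonical CDR3s, and 0 with at least 2 transcripts. By cells the genes lower were TRAJ2, TRAJ5 and TRAJ28, and the gene higher was TRAJ35. The share over all TRAV, TRAJ, TRBV and TRBJ genes was computed only for the main values and without TRDJ-ended chains. The rho of the TRAV to TRAJ coupling was 0.205 by TRAV family number and 0.967 without duplicated copies. The rho of chain pairs was 0.451 with at least 2 transcripts in both chains, 0.360 over distinct pairs and 0.453 over pairs whose chains occur in no other. In genomic distance, the mean position had a median over tables of 34.6 kb from the first TRAJ gene, and the paired tissue was nearer to that gene in 4 animals. The cause of these changes was not tested.

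Leaving out each sublibrary in turn gave 0 to 1 genes lower and 0 to 2 higher in all 7 animals, and 6 to 7 animals with a lower TRAJ22 share. The share over all gene segments was not computed for these counts. The TRAJ22 median share stayed within 8.17% to 8.57%, the mean number within 28.93 to 29.13, the V-proximal share within 22.5% to 22.9%, the coupling within 0.829 to 0.841, and 3 to 5 animals had a higher mean number. Shallow tables limit rare genes most, and 45.0% to 73.2% of the cells of a table rest on 1 TRA transcript.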

Other observations

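A chain was counted once in each table that held it, so a chain shared by animals was counted more than once. Counted in this way, chains of more than 1 animal made 41.4% of the distinct chains. The values were higher for TRAJ12 (54.7%), TRAJ30 (53.1%) and TRAJ22 (48.5%, or 55.7% without TRDJ-ended chains). The share among different chains over all tables was not computed. These 3 genes were chosen after their values were seen.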
